A study of Mus musculus with 8 samples.

Results

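The nuclear genes for subunits of the mitochondrial respiratory chain were followed in liver RNA from 8 mice with colitis, on 8 Affymetrix whole-transcript arrays. Members were chosen by gene symbol from genes that an array row names alone: symbols starting with Ndufa, Ndufb, Ndufc, Ndufs, Ndufv, Uqcr, Cox4i, Cox5, Cox6, Cox7, Cox8 or Atp5, with Sdha to Sdhd and Cyc1. A symbol ending in -ps was left out. This gave 89 of 22180 genes: 32 subunits of complex I, 4 of complex II, 8 of complex III, 19 of complex IV, 17 of complex V, 8 assembly factors of complex I that share the prefix Ndufa, and the pseudogene Uqcrh-ps1, whose symbol the rule does not catch. Another 8 symbols of these families, among them Ndufs6, Ndufb2, Ndufb4, Uqcr10 and Cox6c, occur only in rows that name several genes and are not members. The 4 wild-type mice and the 4 labelled IL-10 knockout were of C57BL/6 background, labelled female and 6 weeks old, and all drank 3% dextran sulfate sodium (DSS), which injures the colon lining, for 7 days. Segments of liver were taken at the end of that week. No mice without DSS enter the comparison, and the labels describe neither the Il10 allele nor the substrain. The comparison asks how liver transcripts differ between the genotypes when both have colitis.

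The respiratory chain sits in the inner mitochondrial membrane. Complex I takes electrons from NADH and complex II from succinate, both hand them to ubiquinone, complex III passes them to cytochrome c, and complex IV passes them to oxygen. Complexes I, III and IV pump protons, and complex V, the ATP synthase, uses the proton gradient to make ATP. Hepatocytes are rich in mitochondria and use this ATP for the synthesis of glucose, urea and plasma proteins. All subunits of complex II and most of the others are nuclear genes, and a small core is encoded in mitochondrial DNA.

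Values are log2 levels from robust multi-array averaging (RMA), given as mean ± SD (n = 4 arrays a genotype). The p-values measure only the spread between these arrays. The row of Il10 was higher in the knockout-labelled arrays (5.97 ± 0.32 against 4.97 ± 0.08; limma adjusted p = 0.00851), so every direction below rests on the labels, and that group is called knockout-labelled. Although all mice are labelled female, 4 arrays carried Y-linked signal and low Xist: replicates 1 and 2 of each genotype. Replicates 3 and 4 of each carried Xist signal, and the results are therefore also given within each of these sets. Of 14 hepatocyte markers 1, Tat, rose and none fell at an adjusted limma p below 0.05. The mean level over the list was between 12.09 and 12.29 in wild-type and between 11.81 and 12.23 in knockout-labelled arrays. The lowest mean was that of knockout-labelled replicate 4. There the marker Cyp7a1 read 5.95, after 10.35, 11.32 and 7.75 in replicates 1 to 3, against 10.02 to 11.48 in wild-type arrays. At an unadjusted limma p below 0.05, 2 of the markers were lower and 2 higher. In 3 of the 14, or 21.4%, all knockout-labelled arrays lay below all wild-type arrays, against 5.74% of all genes, and in 2 above. A gene is called when its limma p, adjusted by Benjamini-Hochberg over all 22180 genes, is below 0.05.

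Respiratory chain genes lay slightly lower in the knockout-labelled arrays, by small amounts that seldom passed the test. Of the 89 members, 77 had a difference below 0, which is 86.5%, against 44.0% of all genes. The median log2 difference was -0.16 for the members and 0.03 for all genes. By complex the median was -0.17 for I, -0.22 for II, -0.14 for III, -0.02 for IV and -0.06 for V, and -0.13 for the assembly factors. The last complexes depended on the processing: complex IV had -0.10 with low genes left out, and complex V ranged from -0.16 to -0.03 over the alternatives, with -0.11 without wild-type replicate 1, -0.03 without knockout-labelled replicate 2 and -0.10 without knockout-labelled replicate 3. Only 3 members were called, all lower: Atp5c1, Atp5k and Ndufaf6. That is 3.37% of the members where 3.15% of all genes were called in either direction and 1.59% were called lower, so the share called lies near that of all genes. At an unadjusted limma p below 0.05, 36 members were lower and 1, Ndufaf4, was higher, where 9.79% of all genes were lower and 11.4% higher; the 36 are 40.4% of the members. At an adjusted p below 0.1, 14 members were lower and none higher (1 higher at an unadjusted p under 0.05), against 3.79% of all genes lower. In 25 members, or 28.1%, all 4 knockout-labelled arrays lay below all 4 wild-type arrays, and in none above; among all genes these shares were 5.74% and 7.20%. The median SE of a member was 0.08, and the median size of its difference was 0.16. In simulated data with 200 genes shifted, the call recovered 0% of shifts of 0.3 and 63.5% of shifts of 0.6. These shares may not carry over: 699 genes were called in the data, and Atp5c1 was called at -0.30.

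**Figure D1:**
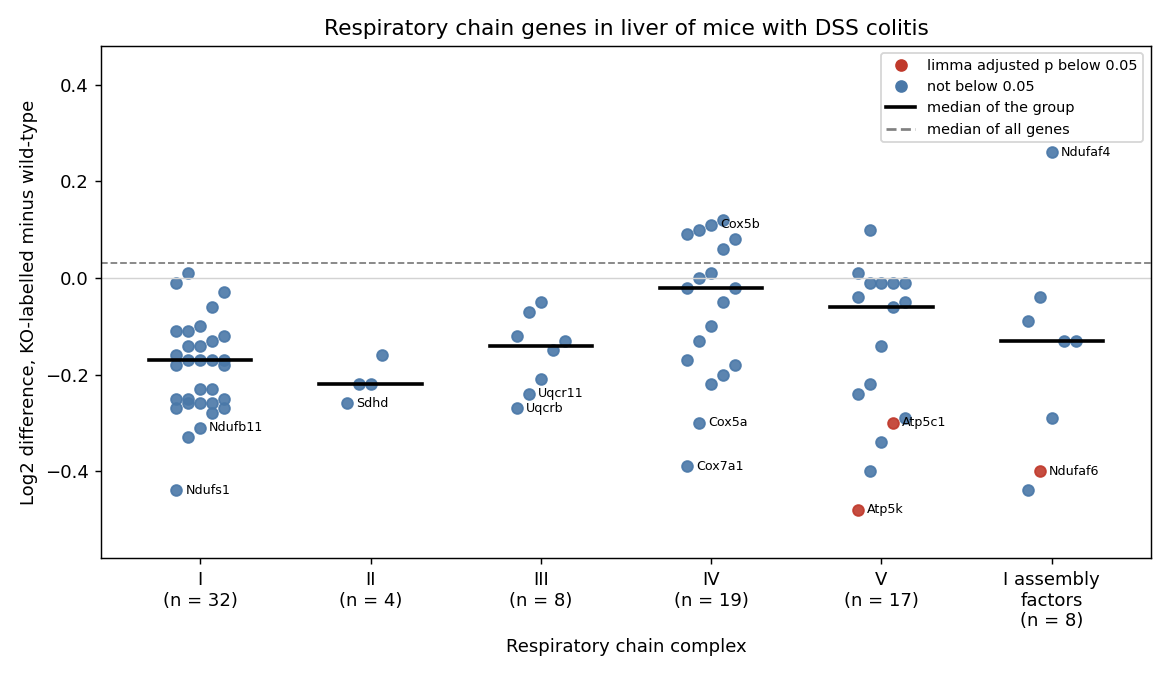
Log2 difference (knockout-labelled minus wild-type) of each member, by complex, with the median of each group as a bar, called members in red and the median of all genes as a dashed line. Complexes I, II and III lie almost wholly below 0 with medians of -0.17, -0.22 and -0.14, while complexes IV and V spread from genes near 0 to Cox7a1 at -0.39 and Atp5k at -0.48.

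Markers of immune cells moved the other way in the same arrays. Of 18 neutrophil markers 13 rose and Prtn3 fell, and their mean level was 6.71 to 7.03 in wild-type and 7.43 to 7.89 in knockout-labelled arrays. Of 18 macrophage markers 7 rose and 11 were not called, with mean levels of 8.93 to 9.22 and 9.39 to 9.77. Of 13 erythroid markers 3 fell, with mean levels of 6.41 to 6.69 and 6.19 to 6.28. The median log2 difference of the erythroid markers was 0.03 among Xist-signal arrays and -0.27 among Y-linked ones. In RNA of whole liver, fewer cells of a type and less RNA per cell cannot be told apart. The part of these markers in the differences of the respiratory chain genes was not tested.

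Array by array, the shift was shared by the 4 knockout-labelled arrays. Measured against each gene's wild-type mean, the median over the 89 members stood at -0.12, -0.15, -0.17 and -0.16 in the knockout-labelled arrays, in order of replicate number. The wild-type arrays, in the same order, had 0.01, 0.02, 0.05 and -0.09. The groups did not overlap, and wild-type replicate 4 lay nearest to the knockout-labelled arrays. That array was the lowest of its group in 63 members, 70.8%, against 25.1% of all genes. Without it, 41 members had groups apart and the median difference was -0.19. With fewer arrays groups lie apart more easily, and the array left out was the wild-type array nearest to the other group. The share over all genes is not given for this fit. Knockout-labelled replicate 3 was the lowest of its group in 34 members, or 38.2%, against 27.6% of all genes. It was lowest for complex I at -0.25 and for the assembly factors at -0.37, and stood at -0.00 for complex V. For complex IV it stood at 0.06, with the widely expressed subunits at -0.06 and the tissue-restricted forms, most of them below every array's median, at 0.14.

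**Figure D2:**
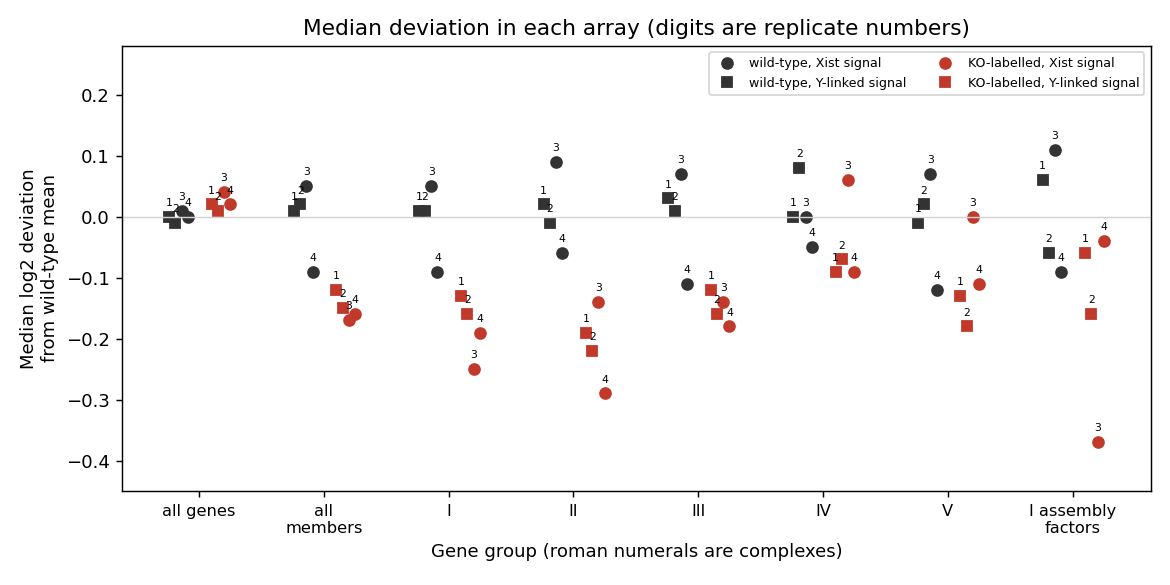
Median log2 deviation from each gene's wild-type mean in each array, for all genes, all members and each complex; squares are arrays with Y-linked signal, circles those with Xist signal, and digits are replicate numbers. For all members the knockout-labelled arrays lie at -0.17 to -0.12 and the wild-type arrays at -0.09 to 0.05. For complexes IV and V and for the assembly factors of complex I the groups overlap.

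The shift was present in both sets of arrays. Over members the median was -0.15 among Xist-signal arrays and -0.14 among Y-linked ones, and 68 members, 76.4%, were below 0 in both, against 28.7% of all genes. For complex I the medians were -0.23 and -0.16, and for complex V -0.06 and -0.16. A limma test of the difference between the sets passed for no member after adjustment (smallest adjusted p = 0.838). At an unadjusted p below 0.05 it named 2 members, Ndufs5 and Atp5g1, where 5.48% of all genes had such a p. Each set has only 2 arrays per genotype.

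**Figure D3:**
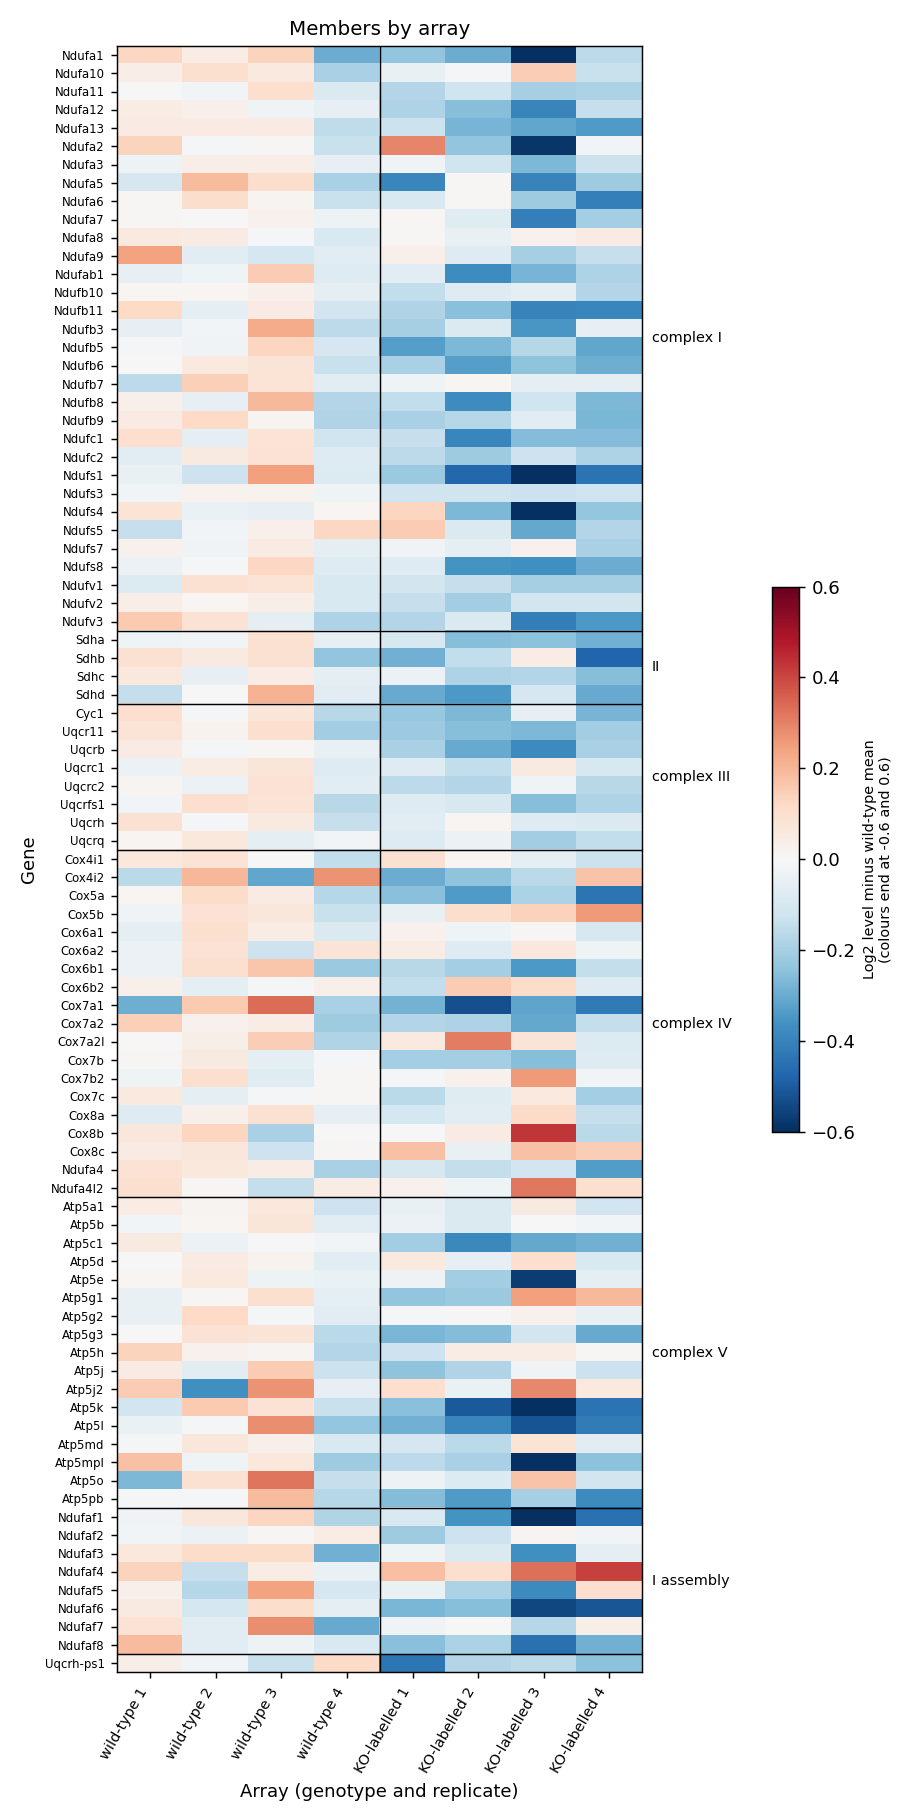
Log2 level of each of the 89 members minus its wild-type mean (colour), with genes in rows by complex and the 8 arrays in columns. Complex I is mostly blue in the knockout-labelled columns, deepest in replicate 3, and wild-type replicate 4 is the bluest of the wild-type columns.

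Since many members shared a direction, their promoters were searched for the motifs of factors known to act on respiratory chain genes: NRF1 (GCGCA, any base, then GCGC), the ETS factor GABPA (CCGGAAG), YY1 (AAGATGGC) and ERR (CAAGGTCA), with Sp1 (GGGCGG) as a general GC-box. Sequences are from RefSeq, build GRCm38.p6, in windows of 300 bases from 250 before to 50 after a start, on both strands. Of the members, 72 matched an entry, with 77 windows. The NRF1 letters stood in 23.4% of these windows and in 4.60% of all 32851 windows. The shares were 24.7% and 8.86% for ETS, 13.0% and 2.75% for YY1, 5.19% and 1.56% for ERR, and 45.5% and 35.7% for Sp1. Members with and without the letters are set side by side with no test. The median log2 difference was -0.13 over 17 members with the NRF1 letters and -0.17 over 55 without. For ETS it was -0.22 over 19 and -0.15 over 53, and for YY1 -0.18 over 10 and -0.17 over 62. For ERR it was -0.25 over only 4 and -0.15 over 68, and for Sp1 -0.16 over 34 and -0.17 over 38.

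The 250 bases before the start are shown for 4 members, chosen after their values were seen: the called Atp5k, Ndufb6 and Uqcr11, whose groups lay apart, and Cox6a1, which had a difference of -0.02. Capitals mark the letters of NRF1 (in Atp5k and Cox6a1) and of ETS on either strand (in Ndufb6, Uqcr11 and Cox6a1). The windows are, in order, chr5:108434400-108434649, chr4:40279422-40279671, chr10:80406822-80407071 and chr5:115348959-115349208, all on the minus strand, and that of Atp5k overlaps the non-coding gene Gm34319.
Atp5k: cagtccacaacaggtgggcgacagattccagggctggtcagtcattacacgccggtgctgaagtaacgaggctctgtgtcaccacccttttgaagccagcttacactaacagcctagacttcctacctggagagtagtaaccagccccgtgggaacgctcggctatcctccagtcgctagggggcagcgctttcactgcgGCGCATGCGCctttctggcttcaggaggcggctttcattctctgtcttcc
Ndufb6: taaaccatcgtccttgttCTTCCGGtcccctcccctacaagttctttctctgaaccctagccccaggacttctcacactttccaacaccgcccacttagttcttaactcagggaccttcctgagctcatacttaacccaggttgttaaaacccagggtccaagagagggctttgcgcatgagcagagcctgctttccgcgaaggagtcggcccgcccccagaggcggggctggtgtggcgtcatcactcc
Uqcr11: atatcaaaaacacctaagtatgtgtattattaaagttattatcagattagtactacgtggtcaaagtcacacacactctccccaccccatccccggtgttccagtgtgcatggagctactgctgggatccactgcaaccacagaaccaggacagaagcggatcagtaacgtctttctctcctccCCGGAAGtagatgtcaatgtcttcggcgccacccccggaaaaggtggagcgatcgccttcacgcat
Cox6a1: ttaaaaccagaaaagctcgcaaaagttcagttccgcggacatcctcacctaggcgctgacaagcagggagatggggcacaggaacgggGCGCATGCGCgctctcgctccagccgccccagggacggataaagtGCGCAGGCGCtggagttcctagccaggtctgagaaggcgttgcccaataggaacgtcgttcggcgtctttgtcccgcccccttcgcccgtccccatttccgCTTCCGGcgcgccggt
Cox6a1 holds the NRF1 letters at 2 places and the ETS letters once, and Atp5k the NRF1 letters once, 50 bases before the start. A match is a description of the letters, not a measured binding site.

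Complex I, the NADH dehydrogenase, had 31 of 32 subunits below 0, and Ndufa8 stood at 0.01. None was called, 15 had an unadjusted limma p below 0.05, all lower, and 13 had groups apart. Ndufs1 carries iron-sulfur clusters of the electron-input end. By replicate number it read 9.19, 9.11, 9.48 and 9.15 in wild-type arrays and 9.01, 8.76, 8.60 and 8.79 in knockout-labelled arrays, the order used for every gene below. The groups did not overlap, with the knockout-labelled replicate 3 lowest. The difference was -0.44 (SE 0.11; limma adjusted p = 0.0609), and the adjusted p ranged from 0.0311, without knockout-labelled replicate 1, to 0.527, among Y-linked arrays alone, over 20 alternatives. It was also below 0.05 with low genes left out (0.0488), quantile normalization (0.0432) and cyclic loess (0.0406). The difference was -0.62 among Xist-signal arrays and -0.26 among Y-linked ones. Ndufb11, a small accessory subunit of the membrane arm, read 6.84, 6.66, 6.77 and 6.61 against 6.54, 6.47, 6.32 and 6.33. Its groups lay apart, with wild-type replicate 4 only just above knockout-labelled replicate 1 (difference -0.31, SE 0.08; limma adjusted p = 0.0744).

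The 6 measured core subunits of the matrix arm, which hold the flavin and the iron-sulfur clusters or scaffold them, were all below 0. After Ndufs1 came Ndufs8 at -0.28, Ndufv1 at -0.16, Ndufv2 at -0.14, Ndufs3 at -0.12 and Ndufs7 at -0.06. In 5 of the 6 the groups did not overlap, Ndufs7 being the exception. The other 26 subunits, which are accessory, had a median of -0.18 and 8 with groups apart. Among these, Ndufb5 had -0.27 and Ndufb6 -0.26, both with all knockout-labelled arrays below the wild-type arrays, and Ndufa10 had -0.01. The heat map of members by array shows that Ndufs4, Ndufa2 and Ndufa7 were low mainly in knockout-labelled replicate 3. Ndufs4, an accessory subunit needed late in assembly, read 10.45 there and 11.28, 10.88 and 10.92 in replicates 1, 2 and 4 of that group, against 11.10 to 11.23 in wild-type arrays.

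The assembly factors of complex I are not part of the finished enzyme but help build it, and 7 of 8 were below 0. Ndufaf6 was called: it read 7.37, 7.21, 7.42 and 7.26 in wild-type and 7.04, 7.06, 6.77 and 6.80 in knockout-labelled arrays. The means were 7.32 ± 0.10 and 6.92 ± 0.15 (SD, n = 4 each), 1.32-fold lower (log2 difference -0.40, SE 0.09; limma adjusted p = 0.0473). The groups did not overlap. An exact permutation test, two-sided, gave p = 0.0286, the smallest value among 70 arrangements. Any gene with groups of 4 that lie apart gets this p, so it adds nothing to the lack of overlap. The call was lost without any single array but knockout-labelled replicate 1 (adjusted p 0.0510 to 0.133 in those 7 fits), and its difference was -0.55 among Xist-signal arrays and -0.24 among Y-linked ones. Ndufaf8 had -0.29 (limma adjusted p = 0.0962) and Ndufaf1 -0.44 (0.129). Ndufaf4 lay the other way, at 7.56 to 7.83 in wild-type and 7.80 to 8.11 in knockout-labelled arrays (0.26, SE 0.09; limma adjusted p = 0.147), with groups that overlapped.

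Complex II, the succinate dehydrogenase shared with the tricarboxylic acid cycle, had all 4 subunits below 0 and none called; 3 had an unadjusted limma p below 0.05. Sdha, the flavoprotein that oxidizes succinate, read 11.54, 11.55, 11.66 and 11.52 in wild-type and 11.47, 11.31, 11.32 and 11.28 in knockout-labelled arrays. Its groups did not overlap, by a narrow margin between wild-type replicate 4 and knockout-labelled replicate 1 (difference -0.22, SE 0.07; limma adjusted p = 0.117). Sdhd, a membrane anchor, read 10.17, 10.31, 10.52 and 10.25 against 10.01, 9.97, 10.21 and 10.01. Here knockout-labelled replicate 3 lay above wild-type replicate 1, so the groups overlapped (-0.26, SE 0.09; limma adjusted p = 0.145). Sdhb, the iron-sulfur subunit, had -0.22, and Sdhc, the other anchor, -0.16.

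Complex III, the cytochrome bc1 complex, had all 8 subunits below 0 and none called by limma (3 lower at an unadjusted p under 0.05). Uqcrb, a small subunit near the ubiquinone site, read 11.81, 11.75, 11.77 and 11.72 in wild-type and 11.57, 11.46, 11.38 and 11.57 in knockout-labelled arrays. The wild-type arrays lay close together and above all others (-0.27, SE 0.07; limma adjusted p = 0.0667). Uqcr11, another small subunit, read 8.86, 8.80, 8.88 and 8.57 against 8.56, 8.52, 8.51 and 8.57. Replicate 4 of both groups reads the same at this rounding, and the other wild-type arrays are clear of the knockout-labelled ones (-0.24, SE 0.08; limma adjusted p = 0.128). The small subunits had a median of -0.18, with Uqcrq at -0.12, and the core and redox subunits -0.14, with no test between them. Among the latter Cyc1, which holds cytochrome c1, had -0.21, the Rieske protein Uqcrfs1 -0.15, and the core proteins Uqcrc2 and Uqcrc1 -0.13 and -0.07. The pseudogene Uqcrh-ps1 had -0.25 at a mean level of 4.42, below every array's median, and its parent Uqcrh -0.05.

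Complex IV, the cytochrome c oxidase, is described by its widely expressed and tissue-restricted forms, with no test between them. Of 11 widely expressed subunits, counting Ndufa4, which belongs to this complex despite its symbol, and the supercomplex factor Cox7a2l, 9 were below 0 with a median of -0.10. None was called by limma (4 lower at an unadjusted p under 0.05). Cox5a, which docks on the matrix side, read 9.59, 9.69, 9.63 and 9.41 in wild-type and 9.33, 9.24, 9.39 and 9.14 in knockout-labelled arrays. The groups lay apart with wild-type replicate 4 next to knockout-labelled replicate 3 (-0.30, SE 0.09; limma adjusted p = 0.0851). Cox7b had -0.18 with groups apart, Cox7a2 -0.20 and Cox6b1 -0.22. At the other end Cox5b had 0.11, Cox7a2l 0.09, Cox6a1 -0.02 and Cox4i1 -0.02, all with groups that overlapped. Neither of the differences above 0 had an unadjusted limma p below 0.05 (0.210 for Cox5b and 0.384 for Cox7a2l).

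The 8 tissue-restricted forms of complex IV, which replace liver-type subunits in heart, skeletal muscle, brown fat, lung or testis, had a median of 0.04. Of these Cox4i2, Cox6b2, Cox7b2, Cox8b, Cox8c and Ndufa4l2 had mean levels between 3.21 and 6.05, below every array's median, and the table holds no detection calls. Cox7a1, the muscle and brown fat form of subunit 7a, read 6.47, 6.92, 7.10 and 6.57 in wild-type and 6.48, 6.24, 6.45 and 6.34 in knockout-labelled arrays. Wild-type replicates 2 and 3 were the highest and wild-type replicate 1 lay among the knockout-labelled arrays, so the groups overlapped (-0.39, SE 0.13; limma adjusted p = 0.137). Cox6a2, another muscle form, had 0.00. None of 17 muscle and brown fat markers was called by limma (2 higher at an unadjusted p under 0.05), with mean levels of 5.71 to 5.90 in wild-type and 5.84 to 5.94 in knockout-labelled arrays.

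Complex V, the ATP synthase, held 2 of the 3 called members beside many subunits near 0. Atp5c1, the gamma shaft of the F1 head that turns inside the catalytic ring, read 7.34, 7.25, 7.29 and 7.27 in wild-type and 7.08, 6.90, 6.98 and 7.00 in knockout-labelled arrays. The means were 7.29 ± 0.04 and 6.99 ± 0.07 (SD, n = 4 each), 1.23-fold lower (-0.30, SE 0.07; limma adjusted p = 0.0415). Atp5k, a small membrane subunit of the dimer interface, read 9.50, 9.77, 9.70 and 9.48 against 9.36, 9.11, 8.86 and 9.17. Its means were 9.61 ± 0.14 and 9.13 ± 0.20 (SD, n = 4 each), 1.40-fold lower (-0.48, SE 0.11; limma adjusted p = 0.0493). Neither gene's groups overlapped. The two-sided exact permutation test gave its lowest value, 0.0286, for each, as it must for any gene whose groups of 4 lie apart. Both calls were lost without any single array but knockout-labelled replicate 1, with adjusted p of 0.0667 to 0.120 for Atp5c1 and 0.0652 to 0.135 for Atp5k. Atp5c1 also missed the threshold with trend and robust settings of limma (adjusted p = 0.0512). The differences in the arrays with Xist and Y-linked signal were -0.29 and -0.31 for Atp5c1, and -0.57 and -0.40 for Atp5k.

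**Figure D4:**
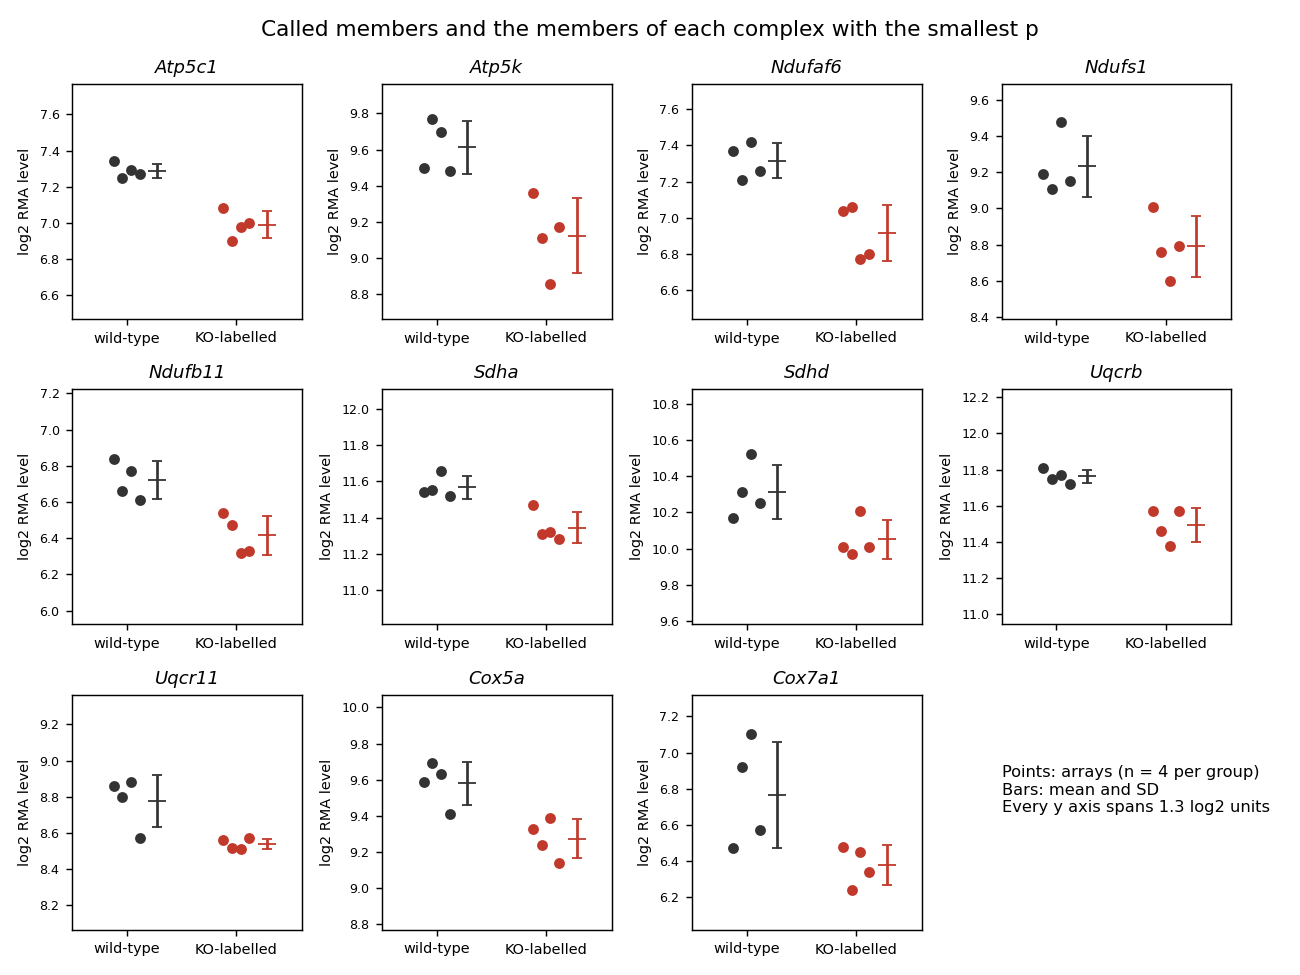
Log2 RMA level in each array (points), with mean and SD (n = 4), of the 3 called members and the 2 members of each complex with the smallest p; every y axis spans the same width. Atp5c1 and Uqcrb have tight wild-type values near 7.29 and 11.77 with all knockout-labelled arrays below, while Sdhd and Cox7a1 overlap.

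The parts of the ATP synthase are described with no test between them, and their ranges overlapped. In the F1 head, the catalytic subunit Atp5b had -0.04, its partner Atp5a1 -0.05, Atp5d 0.01 and Atp5e -0.22 beside -0.30 for the called gamma subunit. In the peripheral stalk, which holds the head still, Atp5pb had -0.29 with groups apart (limma adjusted p = 0.0975), Atp5j -0.14, and Atp5h and Atp5o -0.01 each. The 3 genes for the rotating c-ring had -0.24 (Atp5g3), -0.01 (Atp5g2) and -0.01 (Atp5g1); these genes encode near-identical mature proteins, and whether their rows share probes was not tested. The mean of Atp5g1 hides 6.94 and 6.95 in knockout-labelled replicates 1 and 2 and 7.42 and 7.37 in replicates 3 and 4. Of the small membrane subunits, Atp5k, Atp5l (-0.40; limma adjusted p = 0.0727) and Atp5mpl (-0.34) lay furthest below 0, Atp5md had -0.06, and Atp5j2, at a mean of 5.84, had 0.10. Atp5l read 8.82, 8.85, 9.14 and 8.63 in wild-type and 8.57, 8.47, 8.34 and 8.44 in knockout-labelled arrays, with groups apart.

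Subunits encoded in mitochondrial DNA, which join the nuclear ones in complexes I, III, IV and V, were measured for 10 of 13 genes, none of them of complex V. All 10 were below 0, with a median of -0.10. None was called by limma (1 lower at an unadjusted p under 0.05), and 6 had groups apart, against 5.74% of all genes. ND4L, a core subunit of the membrane arm of complex I, had 13.13 ± 0.04 and 12.99 ± 0.07 (SD, n = 4 each) with groups apart. ND6, the only protein gene encoded on the light strand, read 8.51, 8.54, 8.24 and 8.20 in wild-type and 7.95, 7.90, 6.61 and 7.81 in knockout-labelled arrays. Knockout-labelled replicate 3 was far below the rest (difference -0.81, SE 0.26; limma adjusted p = 0.124).

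Other mitochondrial gene lists are set beside the members with no test between lists. The mitochondrial ribosome, with 71 genes, had the same median of -0.16, with 61 below 0. At an unadjusted limma p below 0.05, 26 were lower (36.6%) and 2 higher, against 9.79% and 11.4% of all genes. In 17 (23.9%) all knockout-labelled arrays lay below all wild-type arrays and in 3 above, against 5.74% and 7.20% of all genes. In this list Mrps28 (-0.53), Mrps10 (-0.39), Mrpl22 (-0.32) and Mrps22 (-0.47) fell. Of 37 assembly factors outside the symbol rule, 31 were below 0 with a median of -0.15 and none was called by limma (11 lower and 1 higher at an unadjusted p under 0.05). Only 1 of the 37 had groups apart, or 2.70%. The smallest p were those of Coa3 (-0.47; limma adjusted p = 0.0690), an early factor of complex IV, and Uqcc2 (-0.47; 0.0865), of complex III, while Coa6, of complex IV, lay the other way (0.48; 0.104).

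Upstream of the chain, 20 genes of the tricarboxylic acid cycle and pyruvate dehydrogenase had a median of -0.09. Suclg1, of succinyl-CoA synthetase, fell by 0.46 and Dlat, of pyruvate dehydrogenase, fell by 0.51 on the log2 scale. The remaining 18 were not called, and at an unadjusted limma p below 0.05 the list had 6 lower and 2 higher. The higher ones were pyruvate carboxylase Pcx (0.27, with groups apart; limma adjusted p = 0.0574) and fumarase Fh1 (0.36; 0.116). Of 21 electron carriers and feeders (median -0.05) none was called by limma (7 lower and 1 higher at an unadjusted p under 0.05); the glycerophosphate dehydrogenase Gpd2 had -0.70 (limma adjusted p = 0.0631) and the sulfide oxidase Sqor -0.38 (0.0686), both with groups apart.

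Among 24 regulators of mitochondrial biogenesis (median -0.05) only Ppara, the nuclear receptor for fatty acids, was called. It read 9.79, 9.76, 9.97 and 9.87 in wild-type and 9.56, 9.19, 8.70 and 8.70 in knockout-labelled arrays (-0.81, SE 0.18; limma adjusted p = 0.0401). The groups lay apart, with replicates 3 and 4 of the knockout-labelled group lowest. Tfam, which packs and transcribes mitochondrial DNA, had -0.30 (limma adjusted p = 0.103).

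In the list of proton leak, superoxide removal and ATP export, 2 of 20 genes were called, both higher. Sod2, the superoxide dismutase of the matrix, read 11.45, 11.40, 11.45 and 11.17 in wild-type and 11.98, 11.94, 11.93 and 12.43 in knockout-labelled arrays (0.70, SE 0.12; limma adjusted p = 0.0188). Nnt, the inner-membrane transhydrogenase, part of whose gene is deleted in the C57BL/6J substrain, read 9.23, 9.11, 9.31 and 9.06 against 9.92, 9.77, 9.51 and 9.68 (0.54, SE 0.10; limma adjusted p = 0.0233). In both genes every knockout-labelled array was above every wild-type array, opposite in direction to most respiratory chain members. The ADP/ATP carrier Slc25a5 had -0.03 and the ATP synthase inhibitor Atpif1 -0.22 (limma adjusted p = 0.186).

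**Figure D5:**
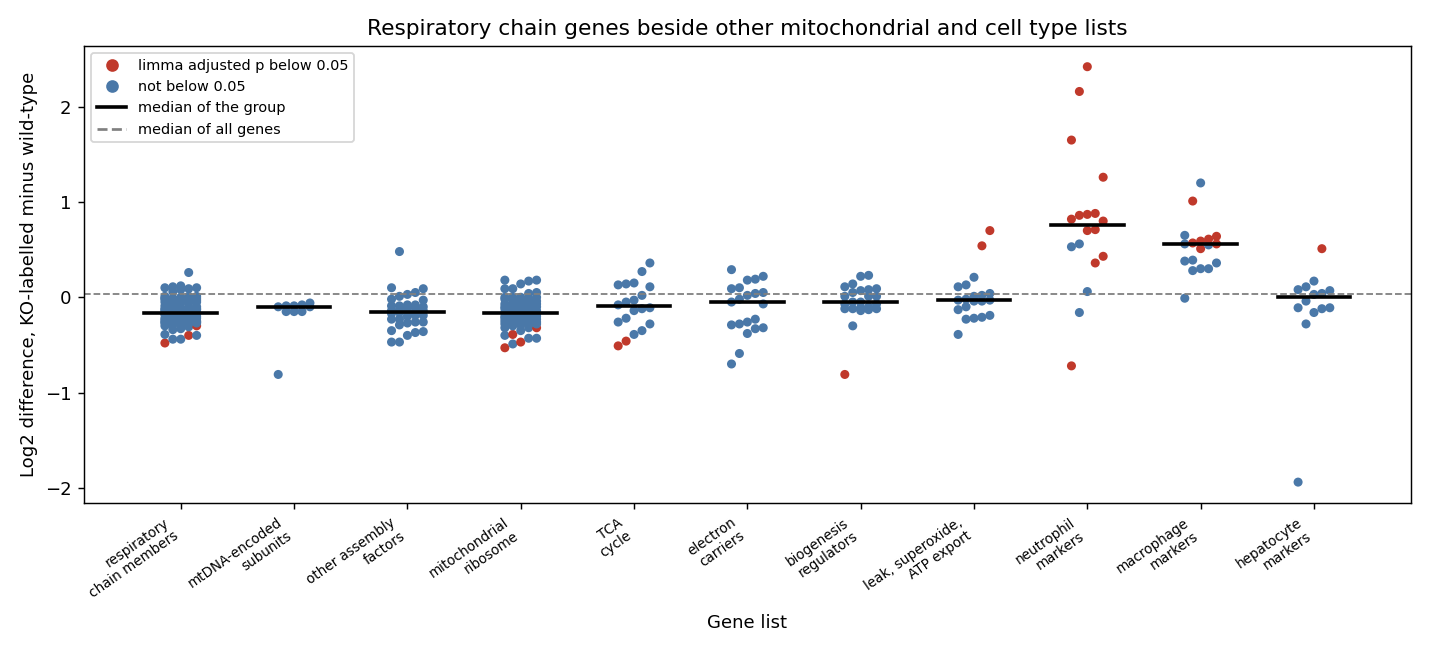
Log2 difference (knockout-labelled minus wild-type) of each gene in the respiratory chain and in 10 other lists, with the list median as a bar, called genes in red and the median of all genes as a dashed line. The medians of the respiratory chain and the mitochondrial ribosome are both -0.16, and those of neutrophil and macrophage markers are 0.76 and 0.56.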

How the data were processed

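Liver RNA of 4 wild-type and 4 knockout-labelled mice was measured on 8 arrays. The deposited values are log2 levels made by the authors with RMA (R 3.0.1), as per the labels and the submitters' processing notes; the background settings, probe summary and annotation build were not given in the sources used here. Of 41345 rows, 23521 name 1 gene in the platform annotation, 1814 name several and 16010 are unnamed here. Where several rows name a gene, the one with the highest overall mean was kept, giving 22180 genes. Array medians lay between 6.09 and 6.22, and precision is limited by how many arrays there are.

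Genes were compared with limma 3.58.1 (lmFit, eBayes without trend, no covariates) in R 4.3.3, with Benjamini-Hochberg adjustment over all genes and no filter on low values. Steps were tested on simulated data in which 200 of 22180 genes were shifted. The call recovered 0% of shifts of 0.3 log2, 63.5% of shifts of 0.6 and 94.0% of shifts of 1. Figures used matplotlib 3.10.9 in Python 3.11.15. No gene set test was run, and lists are described by counts and medians. Values in every array are given for called members and for the 2 members of each complex with the smallest p; of each other list, called genes and otherwise the 2 with the smallest p are named, and further genes, among them Ndufs4, Atp5l, Atp5g1 and Ndufaf4, were chosen after their values were seen. The members and lists were chosen with earlier results of these data known, and the list of subunits encoded in mitochondrial DNA was added after seeing which rows exist. Array sets were taken from Xist and from Kdm5d, Eif2s3y and Uty. Alternatives were other filters, row choices, normalizations, variance models, blocks and thresholds, and each array left out in turn.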

Additional observations from a re-analysis of the deposited data

Results flagged for a closer look

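Among 34 groups of 4 arrays tested for a stray array, 1 stood apart: the median deviation of complex IV in knockout-labelled replicate 3 was 0.06, while replicates 1, 2 and 4 lay at -0.09, -0.07 and -0.09. Chance alone sets apart about 5% of such groups. The widely expressed subunits of complex IV were at -0.10, -0.07, -0.06 and -0.14 in knockout-labelled replicates 1 to 4, so that replicate 3 was within the others there. The tissue-restricted forms, 6 of 8 of them below every array's median, were at 0.14 in replicate 3 and at -0.01, -0.03 and -0.02 in replicates 1, 2 and 4.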

How the results depend on the processing

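Every median named here stayed at or below 0 in each alternative: from -0.22 to -0.12 for all members, -0.23 to -0.15 for complex I, -0.27 to -0.16 for II, -0.20 to -0.11 for III, -0.10 to -0.00 for IV and -0.16 to -0.03 for V. Medians that moved beyond the spread between arrays were all members with a common median per array (-0.22), complex I in the arrays with Xist signal (-0.23), and complex V with the mean of a gene's rows (-0.14) or in the arrays with Y-linked signal (-0.16). Complex IV moved to -0.10 with low genes left out and also, in an alternative added after seeing the data, without its tissue-restricted forms (-0.10). The cause was not tested.

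The count of called members was the least stable value: 3 as reported and 14 at an adjusted p below 0.1, all lower. It was 2 with trend and robust variance settings, without Atp5c1, and 0 with the replicate block (34 members at an unadjusted limma p below 0.05), 0 within the arrays with Xist signal (12 at an unadjusted p, 11 of them lower), 0 within those with Y-linked signal (17, all lower) and, added after seeing the data, 0 with every row tested (35). Genes called among all tested were 699 as reported, 497 with the block, 317 and 171 within the Xist and Y-linked sets, and 207 to 1040 without 1 array. For members, leaving out 1 array gave counts from 0 to 6, 0 for each but knockout-labelled replicate 1. Members with groups apart were 49 (43 lower) and 59 (58 lower) within the Xist and Y-linked sets, where 2 against 2 arrays lie apart more easily. Without 1 array they were 25 to 41 (25 to 41 lower), and members at an unadjusted limma p below 0.05 were 25 to 43 (25 to 42 lower). Shares over all genes are not given for these counts. With all 8 arrays, quantile normalization gave 20 members with groups apart and 28 at an unadjusted limma p below 0.05 (27 lower). Cyclic loess gave 22 and 30 (29 lower), and a common median per array gave 31 and 49 (48 lower). The replicate block was run although the numbers share no litter, batch or day in the labels: deviations of same-numbered arrays correlated at 0.27, 0.04, -0.10 and 0.29, and 2 of 8 arrays correlated best with their own number in the other group. Each of the 3 called members, and each of the 2 per complex with the smallest p, stayed below 0 in every alternative run for it.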

Other observations

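Subunit genes that are named only together with a copy or a neighbour lay below 0 in each row that holds them but the dimmer row of Cox6c. The higher of 2 rows for Ndufs6 and its copy Ndufs6b read 10.03, 10.53, 10.21 and 10.06 in wild-type and 10.08, 9.77, 9.39 and 9.83 in knockout-labelled arrays, a difference of -0.44 (SE 0.16). The row for Ndufb2 and Adck2 differed by -0.25 (SE 0.08) with groups apart, that of Uqcr10 and Gm6293 by -0.24 (SE 0.11), and that of Ndufb4 and its copies by -0.13 (SE 0.06) with groups apart. The brighter row of Cox6c and Gm6265 differed by -0.16 (SE 0.06) with groups apart, and the dimmer by 0.01. Together with second rows of the members Ndufs1, Uqcrb and Ndufs5, 10 rows name a subunit beside another gene, and none passed limma after adjustment over all rows of the table (smallest adjusted p = 0.140, for Uqcrb and Gm10767). Which of the named genes gave the signal cannot be told from these rows.

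Rows of 1 gene differed in several of the 9 members with more than 1 row. For Atp5h the row kept (mean 10.81) differed by -0.01 and its dimmer row (mean 6.55) by -0.34. Ndufa12 differed by -0.25 in the row kept (mean 8.59) and by -0.03 in its dimmer row (mean 6.38). The row kept and the dimmer row had -0.17 and -0.01 for Ndufa11, -0.18 and -0.07 for Cox7b, and -0.22 and -0.06 for Atp5e.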
